A study of Mus musculus with 9 samples.

Results

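The TNF superfamily comprises small trimeric ligands, carried mostly on the cell surface, and the cysteine-rich receptors that bind them. Expression of 9 of its genes in innate lymphoid cells (ILCs) of mouse skin is described here. They are the receptors Tnfrsf4 (OX40), Tnfrsf18 (GITR), Tnfrsf9 (4-1BB), Tnfrsf25 (DR3) and Tnfrsf1b (TNFR2), and the ligands Tnfsf8 (CD30L), Tnfsf10 (TRAIL), Tnfsf11 (RANKL) and Tnfsf14 (LIGHT). The genes were picked by symbol in the platform annotation, not by a threshold on their values, but with earlier results of these data known. Each had 1 probe set of its own, so they make up 9 of the 24922 probe sets and 9 of the 19752 named genes of the array, and all 9 passed the filter on dim probe sets.

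Lymphoid cells were sorted from the skin of female B6 mice, 1 array for each sorted sample. All mice, of both genotypes, carried the CCR10+/EGFP reporter, in which EGFP replaces the product of a single Ccr10 allele, so that GFP marks cells that use the Ccr10 locus. The gate was CD45.2+ and CD3- with a lineage panel, which also excludes CD5, CD11b, B220, Gr-1, the 7-4 antigen and a Ter antigen but holds no mast cell marker. The 4 groups were Rag1-/-CCR10+/EGFP GFP+ cells (2 arrays), Rag1-/-CCR10+/EGFP GFP- cells (3 arrays), GFP+ cells of CCR10+/EGFP mice (2 arrays) and GFP- cells of CCR10+/EGFP mice (2 arrays). The last 2 groups have no Rag1 deletion in their labels and are called Rag1-sufficient. Mice without Rag1 have no mature T or B cells. The labels give neither ages nor whether replicates came from separate animals, so the replicate spread behind each p-value may be technical alone.

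Most receptors of this family, such as OX40, GITR, 4-1BB and TNFR2, bind TRAF adaptors and turn on NF-kB, and act as costimulatory receptors of T cells and ILCs, while receptors such as DR3 and the TRAIL receptor carry a death domain. In type 2 ILCs (ILC2s), GITR and DR3 are known as costimulatory receptors that add to the response to tissue alarmins. RANKL and LIGHT are ligands through which lymphoid cells act on other cells of a tissue.

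The deposited values are linear intensities, with array medians between 74.1 and 77.6, and how precise any value is depends on how few arrays there are. An intensity depends on the probes as well as on the transcript, so levels are compared between arrays for the same gene and not between genes. Rank correlations over all probe sets lay between 0.981 and 0.992 within groups and between 0.975 and 0.993 across groups. Among the listed ILC markers, Id2, a regulator of ILC development, read 6727 to 7905 on the 9 arrays. Gata3, the regulator of ILC2s, read 2263 to 4017. Of the other ILC2 markers, some were bright, such as Icos at 6561 to 7724 and Rora at 1929 to 2772. Others were dim, such as Arg1 at 52.5 to 62.3 and Hs3st1 at 39.2 to 69.6. These levels do not by themselves show the cell type. Rag1 itself read 28.4 to 31.4 on all arrays, below the filter level of 41.6, and so gave no check of the genotype. Of the other markers, the mast cell protease Cpa3 read 2085 and 19.9 in Rag1-/- GFP+ replicates 1 and 2, so these arrays stand apart. It read 20.3 and 21.5 in Rag1-sufficient GFP+, 2009 to 2686 in Rag1-/- GFP- and 4932 and 4965 in Rag1-sufficient GFP- samples. By Cpa3, replicate 2 was thus near the other GFP+ arrays and replicate 1 near the Rag1-/- GFP- arrays. Differences that rest on the Rag1-/- GFP+ arrays are followed by their value without replicate 2. That value keeps the replicate high in Cpa3 and does not mark replicate 2 as faulty. The Rag1-/- GFP+ group has 2 arrays, so leaving out replicate 1 instead moves each difference the other way by as much. In sorted bulk samples, fewer cells of a type and less RNA per cell cannot be told apart.

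Of the 9 genes, Tnfrsf4 had the largest genotype difference in GFP- cells and Tnfsf8 in GFP+ cells, and none of the 9 passed the threshold in any comparison. Differences are given as log2(intensity + 1) ± SE from a limma model with 1 mean per group over all 9 arrays, with Benjamini-Hochberg adjustment over 17445 probe sets and 0.05 as the threshold. In GFP- cells, Rag1-/- minus Rag1-sufficient, 0 of the 9 were called, beside 0.143% of all probe sets, and 5 had an unadjusted p under 0.05, as had 17.3% of all probe sets. In GFP+ cells the same comparison called 0 of the 9, beside 0.246% of all probe sets, and 3 had an unadjusted p under 0.05, as had 6.82% of all probe sets. Without Rag1-/- GFP+ replicate 2 that was 1 of the 9. For GFP+ against GFP- cells, 0 of the 9 were called in Rag1-/- mice, where 0% of all probe sets were, and 0 in Rag1-sufficient mice, where 0.803% were. At an unadjusted p under 0.05 there were 1 of the 9 in Rag1-/- mice, beside 6.29% of all probe sets, and 0 in Rag1-sufficient mice, beside 13.0%. The interaction, which asks whether the gate difference depends on the genotype, also called 0, beside 0% of all probe sets, and 1 had an unadjusted p under 0.05, as had 13.6% of all probe sets.

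The sign of the genotype difference was mostly shared. It was positive for 8 of the 9 genes in GFP- cells, with a median of 0.44 against 0.0003 over all probe sets, and for 7 of the 9 in GFP+ cells, with a median of 0.22 against -0.02. Without Rag1-/- GFP+ replicate 2, 6 of the 9 were positive in GFP+ cells, with a median of 0.13. The GFP- and GFP+ comparisons share no arrays, but the labels do not say whether they share animals. The genes were also chosen with earlier results known, so the shared sign is not independent support. All 4 ligands and all receptors but Tnfrsf18 and Tnfrsf25 had positive differences in both gates, of which those of Tnfrsf1b, Tnfsf11 in GFP- cells and Tnfsf14 took the other sign under some alternatives.

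Separation of the arrays, with every array of a group on one side of the other group, was counted as well. In GFP- cells 5 genes separated with Rag1-/- higher (Tnfrsf4, Tnfrsf9, Tnfrsf25, Tnfsf8 and Tnfsf10) and 0 with Rag1-/- lower, beside 23.0% and 17.6% of all probe sets. In GFP+ cells 3 separated with Rag1-/- higher (Tnfrsf4, Tnfsf8 and Tnfsf11) and 0 with it lower, beside 11.0% and 18.5%. Between gates, 0 were higher and 3 lower in GFP+ cells of Rag1-/- mice (Tnfrsf4, Tnfrsf9 and Tnfrsf25), beside 5.27% and 10.1%, and 0 higher and 2 lower in Rag1-sufficient mice (Tnfrsf18 and Tnfsf8), beside 29.0% and 21.2%. For Tnfrsf4 and Tnfsf8 every one of the 5 Rag1-/- arrays lay above every one of the 4 Rag1-sufficient arrays, 2 of the 9 genes, where 1.32% of all probe sets separate in that direction, and 0 of the 9 separated the other way, where 1.66% do.

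**Figure D1:**
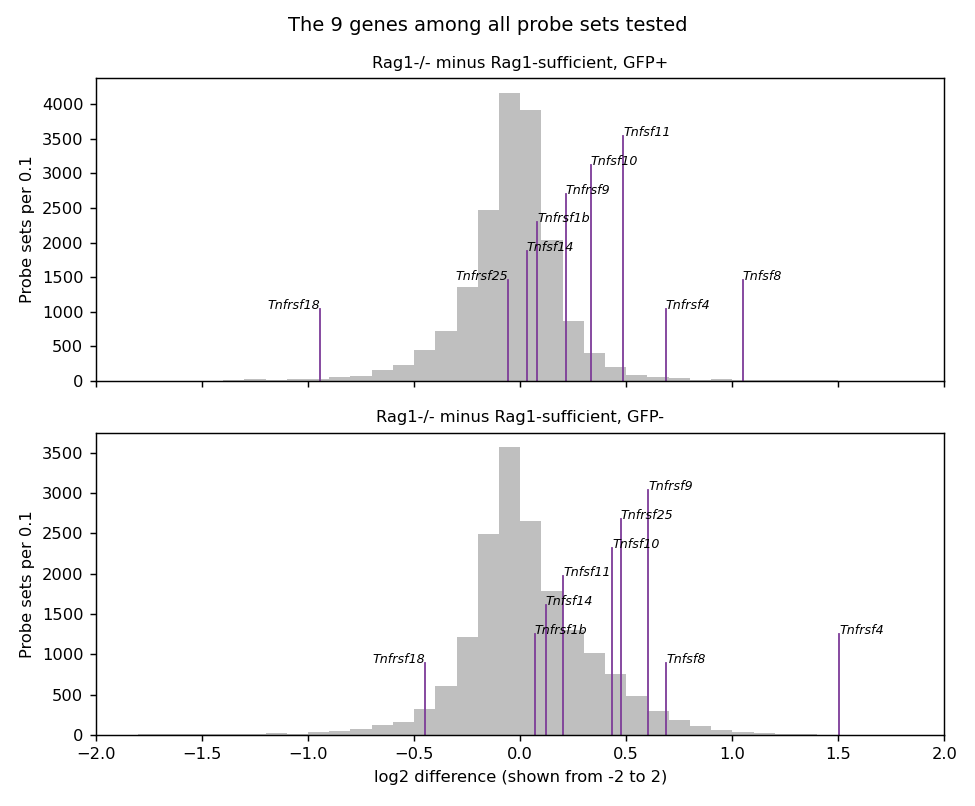
Log2 differences between Rag1-/- and Rag1-sufficient cells, in GFP+ cells (upper panel) and GFP- cells (lower panel). Grey bars count the 17445 probe sets in steps of 0.1 and the purple lines mark the 9 TNF superfamily genes. The axis runs from -2 to 2, and probe sets further out are not drawn. Tnfrsf4 stands at 1.50 in GFP- cells and Tnfsf8 at 1.05 in GFP+ cells, while Tnfrsf18 lies on the negative side in both panels.

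Promoter sequences are shown for Tnfrsf4 and Tnfsf8, the genes that separated the genotypes on all arrays, and for the second start of Tnfrsf9, which holds 3 of the motifs searched. They were taken from RefSeq on GRCm38.p6, from 250 bases before to 50 after the listed start, and all 9 genes matched, with 11 promoters. In all, 4 motifs were searched on both strands, the AP-1 letters TGANTCA, the RUNX letters TGTGGT, the GATA letters AGATAA and an NF-kB motif, and matches are in capitals. The Tnfrsf4 promoter is chr4:156013445-156013744 on the plus strand, that of Tnfsf8 chr4:63861235-63861534 on the minus strand and that of Tnfrsf9 chr4:150927749-150928048 on the plus strand.
Tnfrsf4: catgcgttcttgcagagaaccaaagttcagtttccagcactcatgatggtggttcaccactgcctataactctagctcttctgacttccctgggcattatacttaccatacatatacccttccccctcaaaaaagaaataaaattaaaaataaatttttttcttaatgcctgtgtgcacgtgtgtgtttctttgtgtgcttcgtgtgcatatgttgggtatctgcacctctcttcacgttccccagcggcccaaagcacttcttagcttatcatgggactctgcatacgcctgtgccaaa
Tnfsf8: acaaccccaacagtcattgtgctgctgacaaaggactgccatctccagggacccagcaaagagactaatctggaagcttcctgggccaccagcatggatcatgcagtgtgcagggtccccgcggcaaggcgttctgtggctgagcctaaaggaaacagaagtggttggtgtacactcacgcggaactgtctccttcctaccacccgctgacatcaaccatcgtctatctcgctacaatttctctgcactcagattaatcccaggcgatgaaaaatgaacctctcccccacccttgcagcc
Tnfrsf9: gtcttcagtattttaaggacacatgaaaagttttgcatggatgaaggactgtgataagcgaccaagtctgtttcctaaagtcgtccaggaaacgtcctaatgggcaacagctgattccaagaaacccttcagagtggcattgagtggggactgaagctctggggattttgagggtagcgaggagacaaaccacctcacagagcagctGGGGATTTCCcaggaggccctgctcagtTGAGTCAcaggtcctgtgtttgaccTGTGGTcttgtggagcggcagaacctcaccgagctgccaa

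The windows of Tnfrsf4 and Tnfsf8 held none of the 4 motifs in these letters, nor did that of Tnfrsf18. The window of the second Tnfrsf9 start held the NF-kB motif as GGGGATTTCC 43 bases before that start. It also held the AP-1 letters 15 bases before the start and the RUNX letters just after it. The first Tnfrsf9 promoter held none of the 4 motifs. Among 32851 promoters of this length, 1.63% held the NF-kB motif, and 7.81%, 16.8% and 11.2% the letters for AP-1, RUNX and GATA. Tnfrsf25 also held the NF-kB motif and the RUNX letters, in its first promoter, and Tnfsf14 AP-1 and RUNX letters.

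Tnfrsf4 encodes OX40, which binds OX40 ligand and sustains the survival and cytokine output of activated T cells and ILC2s. The gene lies at chr4:156013595-156016613 (GRCm38.p6). It read 593 and 632 in Rag1-/- GFP+, 987, 1259.6 and 1647 in Rag1-/- GFP-, 451 and 320.0 in Rag1-sufficient GFP+ and 486 and 412 in Rag1-sufficient GFP- samples. The Rag1-/- GFP- arrays were thus the brightest, the Rag1-/- GFP+ arrays came next, and both Rag1-sufficient groups were lowest and overlapped each other. In GFP- cells Tnfrsf4 was 2.84-fold higher in Rag1-/- than in Rag1-sufficient samples, a difference of 1.50 ± 0.24 (95% interval 0.96 to 2.05, adjusted p = 0.0651), larger than in 99.9% of all probe sets. In GFP+ cells the genotype difference was 0.69 ± 0.26 (adjusted p = 0.628), or 0.64 without Rag1-/- GFP+ replicate 2.

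Whether OX40 transcript differed between the gates was read within each genotype. In Rag1-/- mice the difference, GFP+ minus GFP-, was -1.05 ± 0.24 (adjusted p = 0.688), or -1.10 without GFP+ replicate 2, and the arrays did not overlap, as in 10.1% of all probe sets. In Rag1-sufficient mice the gate difference was -0.23 ± 0.26 (adjusted p = 0.818), and 0.012 without GFP+ replicate 2. The difference between these gate differences was -0.82 ± 0.35 (95% interval -1.62 to -0.01, adjusted p = 0.360), or -0.86 without Rag1-/- GFP+ replicate 2.

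The Tnfrsf4 result in GFP- cells stood near the threshold and moved across it with the arrays used. Its adjusted p was 0.0316 without Rag1-/- GFP- replicate 1 and 0.00843 with array weights, and ran from 0.00843 to 0.604 over 15 alternatives, 2 of which passed. The difference itself stayed between 1.32 and 1.69 when any 1 array was left out. The mean of the genotype differences of both gates, a comparison added after the data were seen, was 1.10 ± 0.18 (adjusted p = 0.0722), or 1.07 without Rag1-/- GFP+ replicate 2, beside 0.0860% of all probe sets called in it.

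Tnfsf4, which encodes the OX40 ligand, was dim and ordered the groups much as its receptor did. It read 54.6 and 59.2 in Rag1-/- GFP+, 101, 70.5 and 101 in Rag1-/- GFP-, 37.7 and 33.6 in Rag1-sufficient GFP+ and 56.4 and 38.5 in Rag1-sufficient GFP- samples. Some of the Rag1-sufficient values lie under the filter level of 41.6. The genotype difference was 0.93 ± 0.19 (adjusted p = 0.109) in GFP- and 0.66 ± 0.21 (adjusted p = 0.503) in GFP+ cells, the GFP+ value being 0.60 without Rag1-/- replicate 2. Within Rag1-/- mice GFP+ cells differed from GFP- cells by -0.64 ± 0.19 (adjusted p = 0.688), or -0.70 without that array.

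Markers of other cell types also differed between the genotypes in GFP- cells. All 10 listed T cell markers were measured, and their summed intensity was 4152 and 7553 in Rag1-/- GFP+, 5384 to 7942 in Rag1-/- GFP-, 4159 and 3558 in Rag1-sufficient GFP+ and 2795 and 2732 in Rag1-sufficient GFP- samples. The list did not go 1 way. In GFP- cells 6 of the 10 read higher on all Rag1-/- arrays (Cd3e, Cd3d, Cd3g, Cd4, Lat and Zap70) and 4 lower on all of them (Cd8a, Cd8b1, Cd5 and Cd28). Of all probe sets past the filter, 23.0% separated with Rag1-/- higher and 17.6% with it lower. Some of these markers were dim. In Rag1-/- GFP- against Rag1-sufficient GFP- samples, Cd8b1 read 34.3 to 37.0 against 40.1 and 46.9. Cd8a read 52.9 to 56.2 against 62.2 and 67.5, and Cd3d 52.9 to 125 against 37.3 and 27.1. The sum is carried largely by Cd3g, a CD3 chain, at 2638 to 4859 in Rag1-/- GFP- against 891 and 932 in Rag1-sufficient GFP- samples, in cells gated as CD3-. The costimulator Cd28 read 68.3 to 154 in Rag1-/- GFP- against 210 and 263 in Rag1-sufficient GFP- samples.

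The 11 mast cell markers, all measured, summed to 6121, 4813 and 4784 in Rag1-/- GFP- against 10425 and 10594 in Rag1-sufficient GFP- samples, and 10 of them were lower on all Rag1-/- arrays. The NK cell and ILC1 markers summed to 1498 to 1947 in Rag1-/- GFP- against 806 and 1020 in Rag1-sufficient GFP- samples. Of these, 5 of 10 were higher on all Rag1-/- arrays and 0 lower. Lower on all Rag1-/- GFP- arrays were 5 of 6 fibroblast, 4 of 5 endothelial, 4 of 8 keratinocyte and 4 of 10 macrophage markers, with 0 higher. Of 9 dendritic cell markers 5 were lower and 2 higher. The keratinocyte sum was 2536 in Rag1-sufficient GFP- replicate 2 and 1274 in replicate 1. On the GFP- arrays the T cell sum and Tnfrsf4 ran in the same order. In Rag1-sufficient GFP- replicates 2 and 1 the sums were 2732 and 2795, with Tnfrsf4 at 412 and 486. In Rag1-/- GFP- samples, in replicate order, the sums were 5384, 5692 and 7942, with Tnfrsf4 at 987, 1259.6 and 1647. With the GFP+ arrays included the orders differed, since Rag1-/- GFP+ replicate 2 had the second highest sum (7553) and a Tnfrsf4 value of 632. The part of these transcripts in the Tnfrsf4 difference was not tested.

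**Figure D2:**
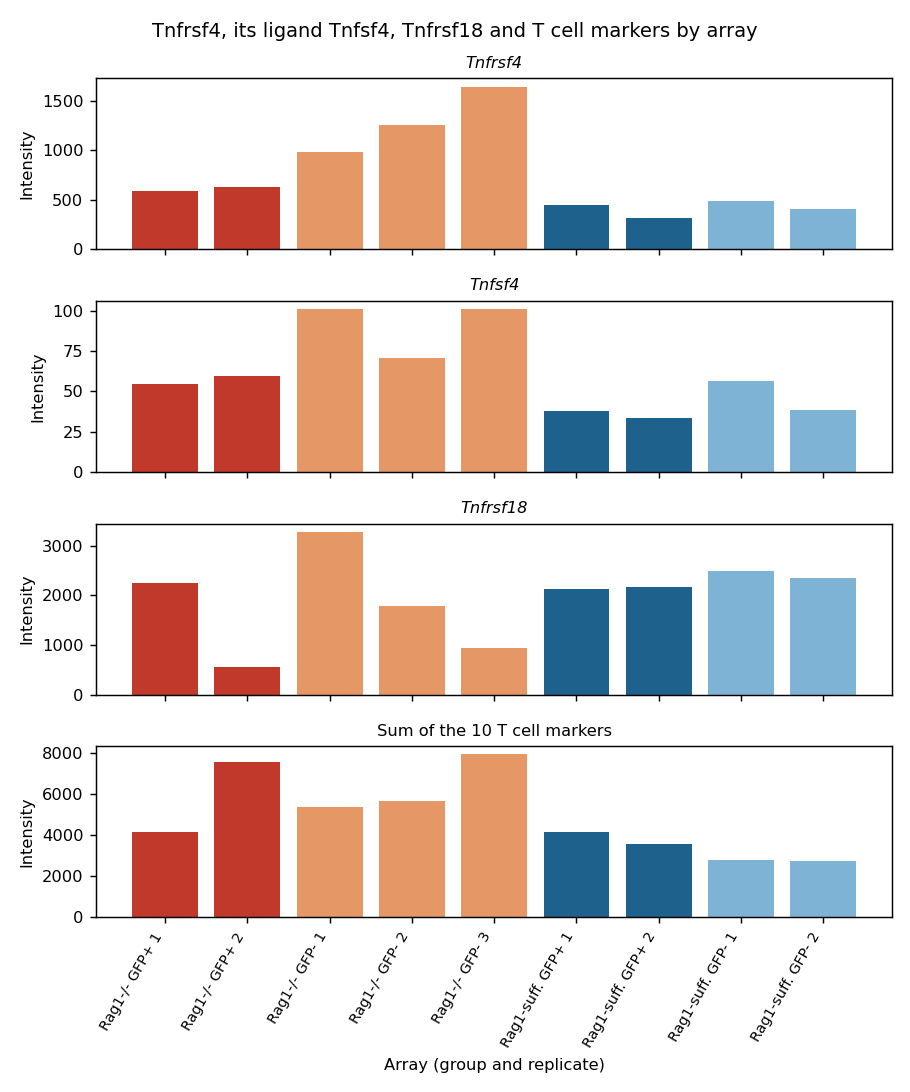
Intensity on each of the 9 arrays (bars, linear scale from 0) for Tnfrsf4, its ligand Tnfsf4, Tnfrsf18 and the sum of the 10 T cell markers, with Rag1-/- arrays on the left. Tnfrsf4 reaches 987 to 1647 on the 3 Rag1-/- GFP- arrays, while Tnfrsf18 spreads from 556 to 3283.5 over the 5 Rag1-/- arrays and from 2135 to 2486 over the 4 Rag1-sufficient arrays.

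Tnfrsf18, the gene of the costimulatory receptor GITR, is a close neighbour of Tnfrsf4. It lies at chr4:156026322-156028894, 9708 bases from Tnfrsf4 with 2 annotated genes in between. It was bright and even on the Rag1-sufficient arrays and scattered on the Rag1-/- arrays. It read 2255 and 556 in Rag1-/- GFP+, 3283.5, 1794 and 945 in Rag1-/- GFP-, 2135 and 2169 in Rag1-sufficient GFP+ and 2486 and 2356 in Rag1-sufficient GFP- samples. Group means were 1406 ± 1201 (SD, n = 2) in Rag1-/- GFP+, 2008 ± 1184 (n = 3) in Rag1-/- GFP-, 2152 ± 24.2 (n = 2) in Rag1-sufficient GFP+ and 2421 ± 91.8 (n = 2) in Rag1-sufficient GFP- samples. On the 3 Rag1-/- GFP- arrays Tnfrsf18 and Tnfrsf4 ran in opposite order, the array with the most Tnfrsf4 holding the least Tnfrsf18.

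The scatter left no difference in Tnfrsf18 to be told from replicate error. Between genotypes it differed by -0.94 ± 0.66 (adjusted p = 0.867) in GFP+ and -0.45 ± 0.60 (adjusted p = 0.721) in GFP- cells, with 95% intervals of -2.45 to 0.57 and -1.83 to 0.93. Without Rag1-/- GFP+ replicate 2 the GFP+ difference was 0.07, and without Rag1-/- GFP- replicate 3 the GFP- difference was 0.0040. With each array left out in turn, the GFP+ difference ran from -1.95 to 0.07. Between gates it differed by -0.66 ± 0.60 (adjusted p = 0.740) in Rag1-/- mice, or 0.35 without GFP+ replicate 2, and by -0.17 ± 0.66 (adjusted p = 0.966) in Rag1-sufficient mice. Its ligand gene Tnfsf18 was below the filter and read 33.6 to 62.7 on all arrays.

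The 2 arrays lowest in Tnfrsf18 had the highest T cell marker sums. Rag1-/- GFP+ replicate 2 (556) and Rag1-/- GFP- replicate 3 (945) had T cell marker sums of 7553 and 7942, against 2732 to 5692 on the other 7 arrays. Of the 10 T cell markers, 3 (Cd3e, Cd3d and Cd3g) were highest on these arrays. Another 2 (Cd8a and Cd8b1, both dim on all arrays) were lowest on them and the other 5 were neither. The NK cell and ILC1 markers, of which 10 of 10 were measured and 2 lay below the filter level on every array, summed to 3845 and 1947 on these arrays and to 806 to 1790.2 on the other 7, with 3 of the 10 highest on both. The part of such transcripts in the Tnfrsf18 values was not tested.

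**Figure D3:**
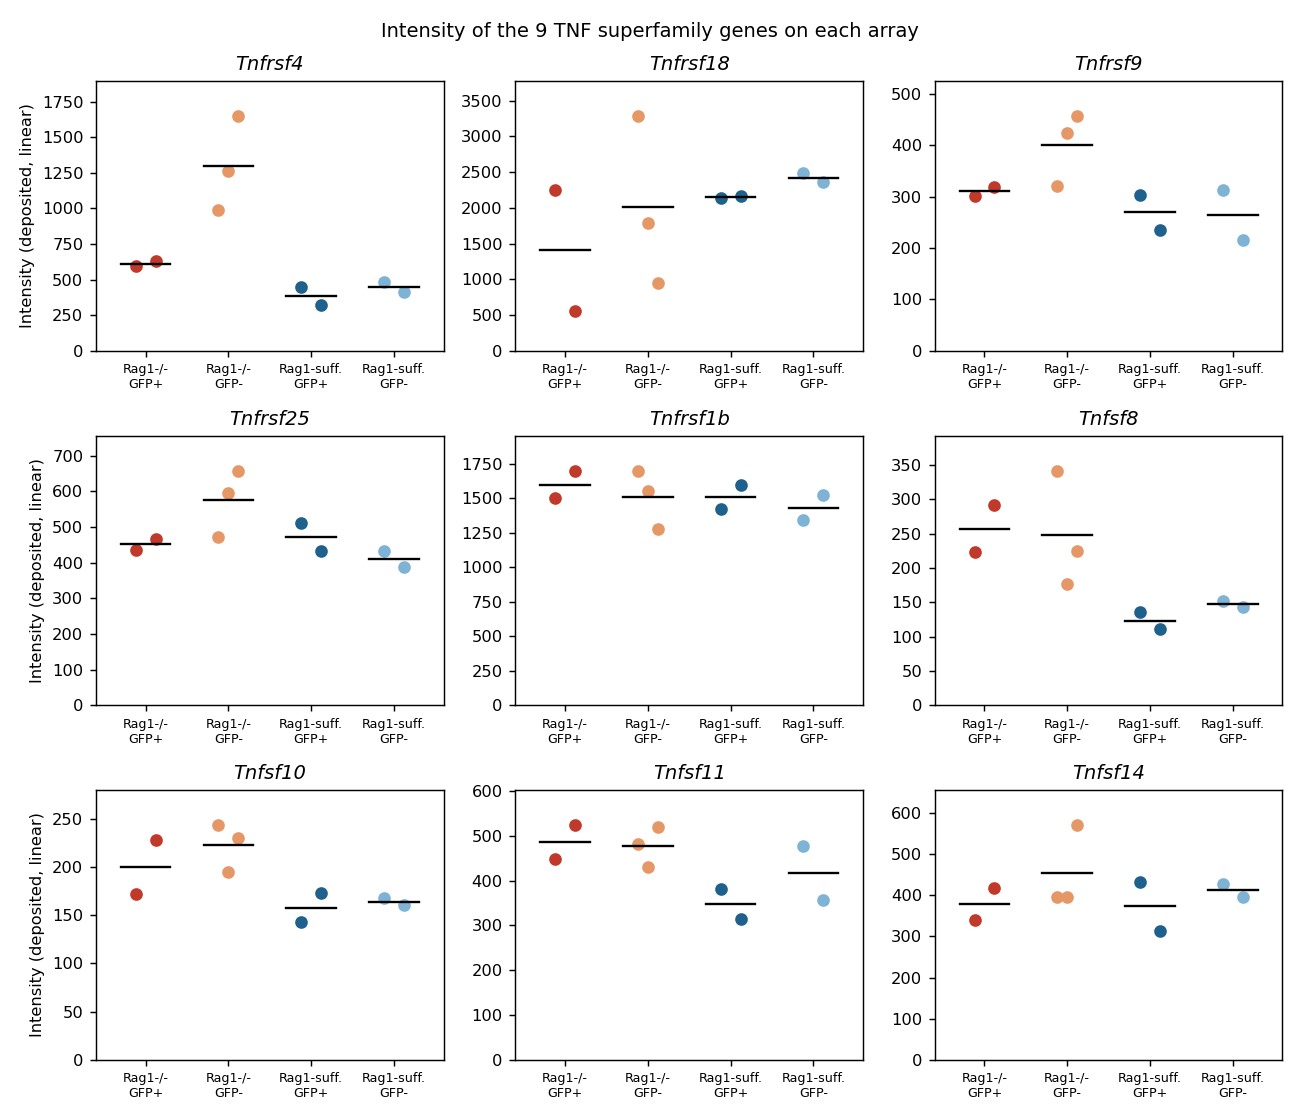
Deposited intensity of the 9 genes (y axis, linear from 0) in the 4 groups, with points for single arrays and black lines for group means. Tnfrsf4 and Tnfsf8 are the genes in which all 5 Rag1-/- points lie above all 4 Rag1-sufficient points.

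The other receptors varied less. Tnfrsf9, the gene of the activation-induced costimulator 4-1BB, read 301 and 319 in Rag1-/- GFP+, 321, 424 and 456 in Rag1-/- GFP-, 303 and 235 in Rag1-sufficient GFP+ and 313 and 216 in Rag1-sufficient GFP- samples. Rag1-/- GFP- cells held the most, and the other groups overlapped. The genotype difference in GFP- cells was 0.60 ± 0.22 (adjusted p = 0.234), with arrays that did not overlap, as in 23.0% of all probe sets. It was 0.22 ± 0.24 (adjusted p = 0.924) in GFP+ cells, or 0.17 without Rag1-/- replicate 2. Tnfsf9, the gene of the 4-1BB ligand, read 210 to 296 on the Rag1-/- arrays, and in Rag1-sufficient mice 237 and 223 in GFP+ against 357 and 318 in GFP- cells, a gate difference of -0.55 ± 0.18 (adjusted p = 0.247).

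Tnfrsf25, the gene of DR3, the receptor of the cytokine TL1A, was also brightest in Rag1-/- GFP- cells. It read 434 and 468 in Rag1-/- GFP+, 472, 596 and 658 in Rag1-/- GFP-, 510.05 and 431 in Rag1-sufficient GFP+ and 434 and 388 in Rag1-sufficient GFP- samples. Only Rag1-/- GFP- replicates 2 and 3 stood above all other arrays. The genotype difference was 0.47 ± 0.18 (adjusted p = 0.238) in GFP- and -0.06 ± 0.19 (adjusted p = 0.983) in GFP+ cells. The GFP+ difference was -0.11 without Rag1-/- GFP+ replicate 2, 0.06 without Rag1-sufficient GFP+ replicate 1 and 0.02 with quantile normalization. The gate difference was -0.34 ± 0.18 (adjusted p = 0.688) in Rag1-/- mice and the interaction -0.53 ± 0.26 (adjusted p = 0.406). Without Rag1-/- GFP+ replicate 2 they were -0.39 and -0.58. Tnfsf15, which encodes TL1A, stayed at 43.2 to 48.9 on all arrays, just above the filter level.

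Tnfrsf1b, the gene of TNFR2, was the steadiest of the 9. It read 1498 and 1696 in Rag1-/- GFP+, 1699.7, 1550.5 and 1277 in Rag1-/- GFP-, 1422 and 1598 in Rag1-sufficient GFP+ and 1341 and 1521 in Rag1-sufficient GFP- samples, a span of 0.41 on the log2 scale over the 9 arrays. All 4 groups overlapped. Its differences lay between 0.07 and 0.09 in the 4 comparisons, and that between genotypes in GFP- cells had a 95% interval of -0.28 to 0.42. Without Rag1-/- GFP+ replicate 2 the genotype difference in GFP+ cells was -0.0089 and the gate difference in Rag1-/- mice -0.0001. The TNFR2 ligands Tnf and Lta were present as well. Tnf read 657 and 1088 in Rag1-/- GFP+ samples and 843 to 1006 on the other 7 arrays. Lta, which encodes lymphotoxin alpha, read 101 to 134 in Rag1-/- GFP- against 85.0 and 73.3 in Rag1-sufficient GFP- samples, a difference of 0.51 ± 0.16 (adjusted p = 0.196).

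**Figure D4:**
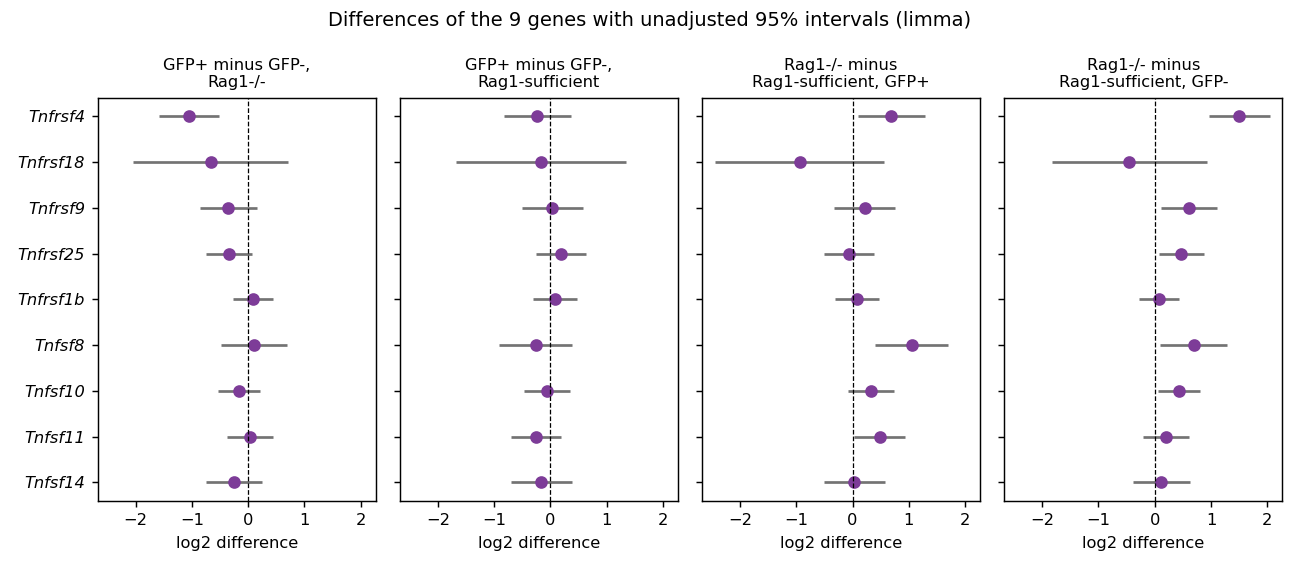
Log2 differences of the 9 genes (points) with unadjusted 95% intervals (lines) from the limma model, in the gate comparisons (the 2 left panels) and the genotype comparisons (the 2 right panels). The interval of Tnfrsf4 in GFP- cells runs from 0.96 to 2.05, and that of Tnfsf8 in GFP+ cells from 0.41 to 1.69.

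Among the 4 ligands, Tnfsf8 had the largest genotype differences in both gates. It encodes CD30L, the ligand of CD30 on activated lymphocytes. It read 223 and 291 in Rag1-/- GFP+, 342, 176 and 224 in Rag1-/- GFP-, 135 and 111 in Rag1-sufficient GFP+ and 151 and 143 in Rag1-sufficient GFP- samples. The gates overlapped within Rag1-/- mice, and the lowest Rag1-/- array (176) stood above the highest Rag1-sufficient array (151). In GFP+ cells Tnfsf8 was 2.07-fold higher in Rag1-/- samples, a difference of 1.05 ± 0.28 (95% interval 0.41 to 1.69, adjusted p = 0.380), and 0.86 without Rag1-/- GFP+ replicate 2. In GFP- cells the difference was 0.69 ± 0.26 (adjusted p = 0.238). The mean of both was 0.87 ± 0.19 (adjusted p = 0.137), or 0.77 without that array, and its adjusted p ran from 0.106 to 0.455 over 15 alternatives. The receptor gene Tnfrsf8, which encodes CD30, read 105 to 168 over all arrays, with a gate difference of -0.40 ± 0.15 (adjusted p = 0.688) in Rag1-/- mice, or -0.21 without GFP+ replicate 2.

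Tnfsf10 encodes TRAIL, a ligand that triggers cell death through its receptor. It read 172 and 228 in Rag1-/- GFP+, 244, 195 and 230.4 in Rag1-/- GFP-, 143 and 173 in Rag1-sufficient GFP+ and 168 and 160.3 in Rag1-sufficient GFP- samples. The Rag1-/- arrays were higher except for GFP+ replicate 1, which lay just under the highest Rag1-sufficient array. The genotype difference was 0.44 ± 0.16 (adjusted p = 0.240) in GFP- and 0.33 ± 0.18 (adjusted p = 0.800) in GFP+ cells, the GFP+ value being 0.13 without Rag1-/- replicate 2. Tnfrsf10b, the mouse TRAIL receptor gene, read 550.3 and 672 in Rag1-/- GFP+ and 799 to 836 in Rag1-/- GFP- samples, a gate difference of -0.43 ± 0.14 (adjusted p = 0.688), or -0.57 without GFP+ replicate 2. It read 651 to 716 on the Rag1-sufficient arrays.

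Tnfsf11 encodes RANKL, which drives osteoclast formation and, in skin and lymphoid tissue, acts on neighbouring stromal and epithelial cells. It read 449 and 524 in Rag1-/- GFP+, 482, 431 and 519 in Rag1-/- GFP-, 380.4 and 315 in Rag1-sufficient GFP+ and 478 and 358 in Rag1-sufficient GFP- samples. The genotypes did not overlap in GFP+ cells, as in 11.0% of all probe sets, and overlapped in GFP- cells. The difference was 0.49 ± 0.20 (adjusted p = 0.699) in GFP+ cells, or 0.37 without Rag1-/- replicate 2, and 0.20 ± 0.18 (adjusted p = 0.577) in GFP- cells. Its receptor gene Tnfrsf11a (RANK) read 76.2 to 125 and the gene of the soluble decoy receptor, Tnfrsf11b (osteoprotegerin), 46.7 to 57.2 over all arrays.

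Tnfsf14 encodes LIGHT, which binds the herpesvirus entry mediator and the lymphotoxin beta receptor. It read 339 and 418 in Rag1-/- GFP+, 397, 396 and 571 in Rag1-/- GFP-, 433 and 314 in Rag1-sufficient GFP+ and 427 and 397 in Rag1-sufficient GFP- samples. Apart from Rag1-/- GFP- replicate 3 the arrays of all groups overlapped, and the genotype differences were 0.03 ± 0.24 (adjusted p = 0.995) in GFP+ and 0.12 ± 0.22 (adjusted p = 0.799) in GFP- cells. These took the other sign in some alternatives, at -0.20 without Rag1-sufficient GFP+ replicate 2 and -0.12 without Rag1-/- GFP+ replicate 2 in GFP+ cells, and at -0.05 without Rag1-/- GFP- replicate 3 or with quantile normalization in GFP- cells. Its receptor genes were flat, with Tnfrsf14 at 138 to 161 and Ltbr at 69.2 to 87.4.

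**Figure D5:**
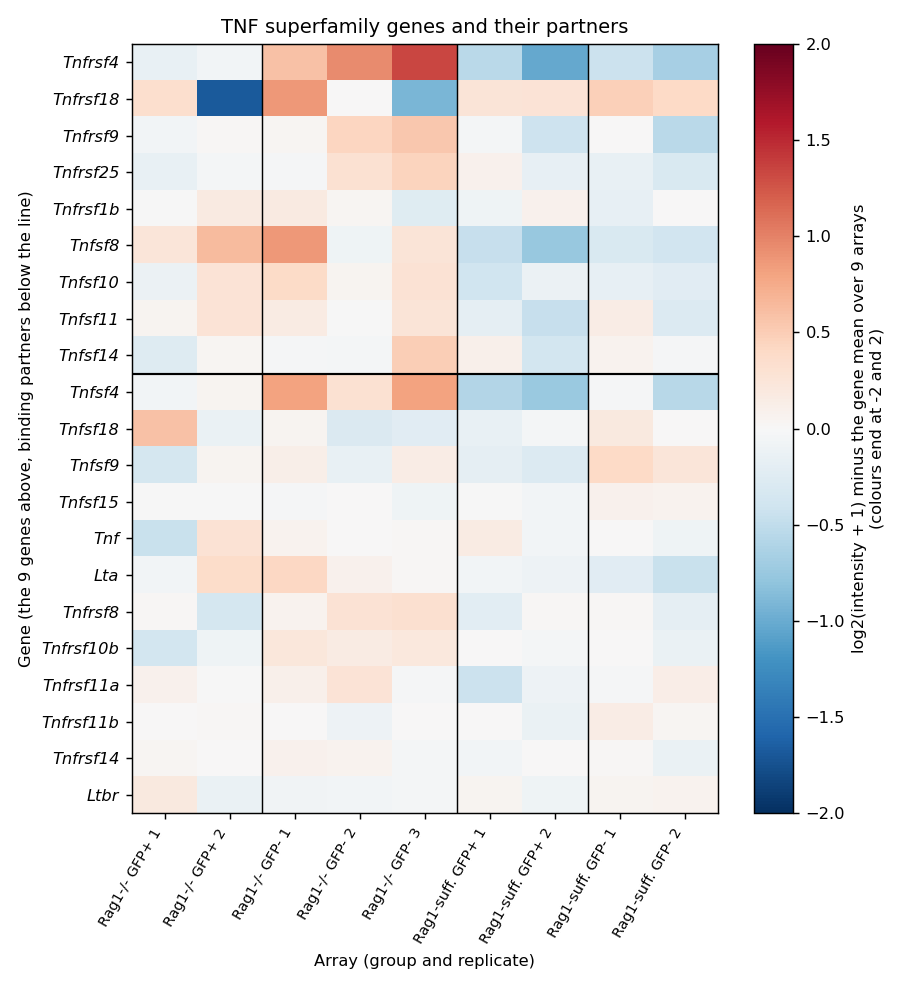
Log2(intensity + 1) of the 9 genes (above the line) and of 12 genes for their ligands or receptors (below it) on the 9 arrays, each gene centred on its own mean, with red above and blue below it. Tnfrsf4 and Tnfsf4 are red on the 3 Rag1-/- GFP- arrays, and Tnfrsf18 is bluest on Rag1-/- GFP+ replicate 2.

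No further gene of the family or of its signalling pathway passed the threshold in the 5 comparisons. Of 14 other ligand genes listed, 12 were on the array and 8 passed the filter, and of 23 other receptor genes 23 and 21. In GFP- cells of Rag1-/- against Rag1-sufficient mice, the other ligands had 3 genes and the other receptors 2 at an unadjusted p under 0.05, that is 3 of 8 and 2 of 21, beside 17.3% of all probe sets, with medians of 0.17 and 0.0081. Tnfrsf21, the gene of the death receptor DR6, had the smallest unadjusted p of the other receptors, with 176 and 216 in GFP+ against 320 and 294 in GFP- cells of Rag1-sufficient mice, a difference of -0.65 ± 0.18 (adjusted p = 0.176). Fas, the death receptor gene, read 147 to 207 in Rag1-/- GFP- and 123 and 102 in Rag1-sufficient GFP- samples. Its genotype difference in GFP- cells was 0.62 ± 0.19 (adjusted p = 0.193) and its interaction -0.98 ± 0.28 (adjusted p = 0.256), or -1.23 without Rag1-/- GFP+ replicate 2 (adjusted p = 0.0596).

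Of the TRAF and death domain adaptors, 13 of the 15 listed genes were measured, and of the NF-kB subunits and regulators 10 of 12. In Rag1-sufficient mice 9 of these 10 NF-kB genes read lower in GFP+ than in GFP- cells, with a median of -0.30 against 0.01 over all probe sets, and 5 had an unadjusted p under 0.05, beside 13.0% of all probe sets. Nfkbia, the gene of the NF-kB inhibitor that NF-kB itself induces, read 1572 and 1525 in GFP+ against 2593 and 2381 in GFP- cells, and differed by -0.68 ± 0.16 (adjusted p = 0.126). Nfkbie, which encodes a related inhibitor, differed by -0.52 ± 0.17 (adjusted p = 0.243). Mast cell marker sums were 917.5 and 1017 in GFP+ and 10425 and 10594 in GFP- samples of these mice, and their part in the NF-kB values was not tested. Among the adaptors, Tank, a regulator of TRAF signalling, differed by 0.69 ± 0.16 (adjusted p = 0.122) in this comparison, and Fadd, the death domain adaptor, by -0.23 ± 0.09 (adjusted p = 0.688) between gates in Rag1-/- mice, or -0.27 without GFP+ replicate 2.

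Genes with the most similar profiles were sought for the 4 genes whose values spanned more than 1 on the log2 scale, as the smallest root-mean-square difference between centred log2 profiles over the 9 arrays among 13341 other named genes. Nearest to Tnfrsf4 were Sh3bgrl2 (0.19), Prkch (0.22) and Bnip3 (0.22). Prkch, a protein kinase C gene, read 429 and 587 in Rag1-/- GFP+, 629 to 1047 in Rag1-/- GFP-, 317 and 285 in Rag1-sufficient GFP+ and 357 and 375 in Rag1-sufficient GFP- samples, the same order of groups as Tnfrsf4. Nearest to Tnfsf8 were Nrgn (0.18), the checkpoint receptor gene Havcr2 (0.21) and the thrombin receptor gene F2r (0.21), and nearest to Tnfrsf9 were Tspan5 (0.10), Mmp9 (0.11) and Ndel1 (0.11). Tnfrsf18 had no close match, with Marveld2 (0.56), Cyp2f2 (0.56) and Syne2 (0.56) as the nearest. All these profiles share the same 9 arrays.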

How the data were processed

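RNA of 9 sorted skin samples was hybridised to Affymetrix arrays as biotinylated single-stranded DNA, per the labels. The authors deposited 1 linear intensity per probe set and array, already on a common scale, and the submitters' processing notes name MAS5, with no version or role given there. The genome build and the normalization between arrays are not given in the sources used here. Probe sets were named from the platform annotation (21425 with 1 symbol, 1399 with several and 2098 with none), and 21347 of the named sets matched GRCm38.p6 by gene identifier. Listed genes with more than 1 set are represented by their brightest.

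Analyses used log2(value + 1), a scale on which dim genes show less than their true change, after removal of the dimmest 30% of probe sets by mean log2 value. limma 3.58.1 (R 4.3.3) fitted 1 mean for each of the 4 groups, with eBayes following intensity (5 residual and 3.56 prior degrees of freedom). All p-values were two-sided, and the Benjamini-Hochberg adjustment covered the 17445 probe sets kept by the filter. Besides the 9 genes and their binding partners, those genes of the ligand, receptor, adaptor and NF-kB lists were named that passed the threshold or, where none did, had the smallest unadjusted p. The genes and lists were chosen with earlier results of these data known. In all, 12464 probe sets held the same value on at least 2 arrays, none of the 9 genes among them. The replicate numbers were not said to mark a shared animal or day, and the deviations of same-numbered arrays correlated between -0.51 and 0.24. The filter, pseudocount, scaling, array weights, variance trend, replicate block and each array were varied in turn.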

Additional observations from a re-analysis of the deposited data

How the results depend on the processing

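Of the 54 differences computed for the 9 genes, 2 passed the threshold under some of their 15 alternatives, both of Tnfrsf4. The Rag1-/- minus Rag1-sufficient difference in GFP- cells passed with array weights (1 of the 9 genes called) and without Rag1-/- GFP- replicate 1 (0 to 1 called over the arrays left out), and the mean of both gates passed with array weights (1 called). Counts over all probe sets were less stable. With array weights they were 1290 for the gates in Rag1-sufficient mice, 1168 for the genotypes in GFP- cells, 31 for the interaction and 64 for the mean of both gates. Quantile normalization gave 20 for the genotypes in GFP+ cells, 1 for the interaction and 25 for the mean of both gates. The fit without a variance trend gave 3 in GFP+ cells, a pseudocount of 16 gave 39 in GFP- cells, and no filter gave 5 for the mean of both gates. The replicate block, on numbers that share no stated source, gave 73 for the gates in Rag1-sufficient mice, 2 for the genotypes in GFP+ cells, 6 in GFP- cells and 9 for the mean of both gates, and called none of the 9 genes. Leaving out 1 array gave 0 to 7 for the gates in Rag1-/- mice (7 without Rag1-/- GFP+ replicate 1), 3 to 339 in Rag1-sufficient mice (3 without Rag1-sufficient GFP- replicate 2, 339 without Rag1-/- GFP+ replicate 2), 1 to 138 for the genotypes in GFP+ cells (1 without Rag1-sufficient GFP+ replicate 2, 138 without Rag1-/- GFP+ replicate 2), 1 to 139 in GFP- cells (1 without Rag1-sufficient GFP- replicate 2, 139 without Rag1-/- GFP- replicate 1), 0 to 498 for the interaction (498 without Rag1-/- GFP+ replicate 2) and 2 to 63 for the mean of both gates (63 without Rag1-/- GFP+ replicate 1). The cause was not tested.

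Signs turned in 14 cases under the settings other than leaving out an array, none of them a called difference. Quantile normalization gave -0.047 for Tnfrsf9 and -0.057 for Tnfrsf1b between gates in Rag1-sufficient mice, 0.020 for Tnfrsf25 between genotypes in GFP+ cells, -0.13 for Tnfrsf1b and -0.054 for Tnfsf14 in GFP- cells, and 0.0085 for Tnfsf10 and 0.16 for Tnfsf14 in the interaction. The replicate block gave -0.026 for Tnfrsf1b between gates in Rag1-/- mice, 0.0040 for Tnfrsf18 and -0.054 for Tnfsf14 between genotypes in GFP- cells, -0.10 for Tnfrsf1b and 0.085 for Tnfsf14 in the interaction and -0.012 for Tnfsf14 in the mean of both gates. Only Rag1-/- GFP- samples have a replicate 3, so the block fits that array on its own. Its values equal those without Rag1-/- GFP- replicate 3. Array weights gave -0.013 for Tnfrsf1b in the interaction. Leaving out 1 array turned 39 values, among them those listed for the replicate block. Between gates in Rag1-/- mice, Tnfrsf18 ran from -1.67 to 0.35, Tnfrsf1b from -0.026 to 0.18, Tnfsf8 from -0.12 to 0.36, Tnfsf10 from -0.36 to 0.039 and Tnfsf11 from -0.084 to 0.14. Between gates in Rag1-sufficient mice, Tnfrsf4 ran from -0.48 to 0.012, Tnfrsf9 from -0.23 to 0.30, Tnfrsf1b from -0.012 to 0.17, Tnfsf10 from -0.20 to 0.081 and Tnfsf14 from -0.39 to 0.073. Between genotypes in GFP+ cells, Tnfrsf18 ran from -1.95 to 0.068, Tnfrsf25 from -0.18 to 0.063, Tnfrsf1b from -0.0089 to 0.17 and Tnfsf14 from -0.20 to 0.26. In GFP- cells, Tnfrsf18 ran from -0.89 to 0.0040, Tnfrsf1b from -0.022 to 0.18, Tnfsf11 from -0.0052 to 0.41 and Tnfsf14 from -0.054 to 0.21. In the interaction, Tnfrsf18 ran from -1.50 to 0.52, Tnfrsf1b from -0.10 to 0.10, Tnfsf10 from -0.30 to 0.10 and Tnfsf14 from -0.32 to 0.14, and in the mean of both gates Tnfsf14 ran from -0.041 to 0.19.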
